A study of Mus musculus with 6 samples.

Results

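Fatty acid oxidation and peroxisome genes were followed here in kidneys of mice at postnatal day 35, as 45 named genes out of 20138 in the authors' deposited table. The 45 were chosen by gene symbol, as regulators, enzymes of mitochondrial and peroxisomal beta-oxidation and peroxisome assembly genes, and all 45 were found. The series compared 3 Pkd2-KO animals (Pkhd1Cre; Pkd2 F/F) with 3 Pkd2-miR-214-KO animals (Pkhd1Cre; Pkd2 F/F; miR-214null). Both genotypes therefore carry floxed Pkd2, the gene of the cystic kidney protein polycystin-2, and Cre driven by the Pkhd1 promoter, which is known mainly for its activity in collecting ducts. The second genotype differs by a null allele of the microRNA miR-214. Kidneys with intact Pkd2 were not analysed here. The comparison asks what the loss of miR-214 changes in kidneys with this Pkd2 deletion.

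Cells of the proximal tubule and thick ascending limb draw much of their ATP from fatty acids. A fatty acid is taken up, joined to coenzyme A, passed into mitochondria on carnitine, and shortened by repeated rounds of dehydrogenation, hydration, dehydrogenation and thiolysis. Peroxisomes shorten very long and branched chains and are built by the peroxins. The receptor PPAR-alpha, paired with RXR-alpha and aided by the coactivator PGC-1-alpha, switches on many of these genes.

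The values are log2 folds, mean log2 CPM (counts scaled to library size, averaged over the libraries) and adjusted p-values as the authors fitted them. Folds above 0 mean more RNA in Pkd2-miR-214-KO, a direction read from Mir214, which the authors' deposited table gives at -7.62. Errors are an approximate standard error (SE), obtained as the absolute fold over the root of the likelihood ratio, and 95% intervals are 1.96 SE on either side. By this construction an interval leaves out 0 only where the unadjusted p is under 0.05. Whether an interval holds 0 therefore restates the authors' likelihood ratio test and is no separate evidence. Values per library were not analysed here, so the depth is unknown, and values per animal and their overlap between genotypes are not given. The kidney genes Kap (mean log2 CPM 12.47) and Umod (11.40) stood far above the median gene (3.77) in the authors' deposited table. Pkd2 RNA was present in the whole kidneys, where the authors' deposited table gives a mean log2 CPM of 7.85 and a log2 fold of -0.11 ± 0.23.

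None of the 45 transcripts passed the authors' likelihood ratio test. With an adjusted p below 0.05 as the threshold, 0 of the 45 genes differed in the authors' deposited table, against 0.124% of all genes. At an unadjusted p under 0.05 there were 4, with lower values for Cpt1b, Acox2 and Fabp3 and a higher value for Acsl4. These 4 are 8.89% of the 45, against 4.82% of all genes and 3.53% of genes with a mean log2 CPM of at least 3. By direction, 3 were lower, against 1.71% of all genes, and 1 was higher, against 3.1%. Cpt1b had the smallest adjusted p of the 45, 0.463, in the authors' deposited table.

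Most folds were small and below 0. Of the 45 log2 folds, 31 were negative (68.9%), against 48.2% of all genes and 49.7% of genes with a mean log2 CPM of at least 3. The median over the 45 was -0.08, against 0.00 over all genes, and the range ran from -0.87 (Cpt1b) to 2.0 (Fabp1) in the authors' deposited table. For 40 of the 45 the approximate 95% interval lay wholly within a log2 fold of 1 on either side, that is, within a 2-fold change. The same held for 10416 of 11406 genes with a mean log2 CPM of at least 3, and for 11580 of all 20138. Among the 45, the exceptions were Fabp1, Fabp3, Cd36, Cpt1b and Acox2. The 45 genes were measured in the same 6 libraries and are not replicates of each other. In bulk kidney, fewer cells of a type and less RNA per cell cannot be told apart.

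**Figure D1:**
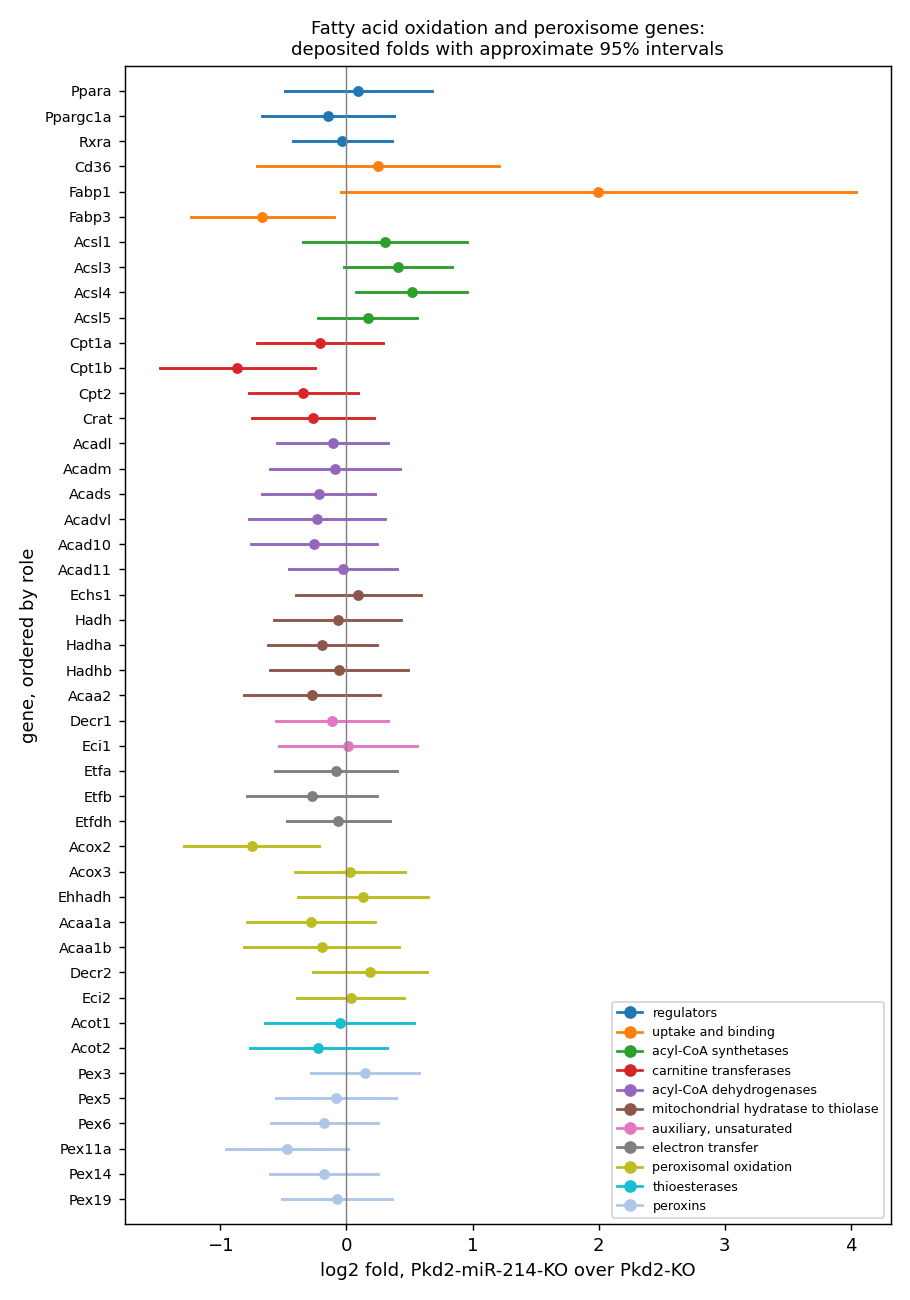
Log2 fold of each of the 45 genes (points), with approximate 95% intervals (lines) of 1.96 SE, grouped by role. Intervals of Cpt1b, Acox2 and Fabp3 lie below 0 and that of Acsl4 above 0, while Fabp1 has the widest interval, from -0.05 to 4.04. By construction, an interval leaves out 0 only where the unadjusted p of the likelihood ratio test is under 0.05.

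Sites for miR-214 in the 3' UTRs of these genes were searched because the microRNA is the deleted regulator. Its mature arms, from RefSeq on GRCm38.p6, are shown with the seed (bases 2 to 8) in capitals.
mmu-miR-214-3p: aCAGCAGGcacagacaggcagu
mmu-miR-214-5p: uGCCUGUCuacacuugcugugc
The 7 bases that pair with the -3p seed (CCTGCTG) occurred in the longest annotated 3' UTR of 8 of the 45 genes (17.8%), against 3601 of 16900 genes (21.3%). The 3' UTRs of the 45 were shorter, with a median of 769 bases against 1041. The sites of 3 genes are shown in capitals with 8 bases on either side, 5′ to 3′ on the transcript, because these genes span the pathway from activation to peroxisome division.
Acsl1: tgtttgcgCCTGCTGgaacatga
Crat: gccatctcCCTGCTGccacactc
Pex11a: cctgttaaCCTGCTGgtcccggt
They lie at chr8:46535068-46535090 (plus strand), chr2:30402051-30402073 (minus strand) and chr7:79736881-79736903 (minus strand) on mm10. Hadha, Acaa2, Acox3, Pex14 and Pex19 also held a site, Pex14 with 2 copies. Of the 8 genes with a site, 2 had a positive log2 fold, Acsl1 (0.30) and Acox3 (0.03), in the authors' deposited table. Their median log2 fold was -0.18, against -0.08 for the other genes of the pathway. Over all genes, the medians were -0.01 with a site and 0.00118 without. With the 6-base site (CTGCTG), 14 of the 45 matched (31.1%), against 48.9% of all genes. The 7-base match to the -5p seed (GACAGGC) occurred in 3 of the 45, Cpt1a, Crat and Acot1, or 6.67%, against 9.4% of all genes. A match describes letters and is not evidence of binding.

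The regulators had folds near 0. Ppara, which encodes PPAR-alpha (chromosome 15, 85734983 to 85802819), stood in the authors' deposited table at a log2 fold of 0.09 ± 0.30 (SE). Rxra, its RXR-alpha partner, had -0.03 ± 0.20, and Ppargc1a, which encodes PGC-1-alpha, -0.14 ± 0.27, each with an adjusted p of 1 in the authors' deposited table. The intervals ran from -0.49 to 0.68 for Ppara, from -0.43 to 0.36 for Rxra and from -0.67 to 0.38 for Ppargc1a. All 3 intervals hold 0 and end short of a 2-fold change. Of 22 other regulators of this metabolism, 0 passed at either threshold, 13 were negative and the median was -0.04. Hnf4a, a nuclear receptor of proximal tubule identity, had -0.51 ± 0.32 and Acacb, which makes the malonyl-CoA that restrains carnitine transfer, -0.54 ± 0.37 in the authors' deposited table.

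Uptake and binding genes pointed in different directions. Fabp3 (chromosome 4, 130308595 to 130315463), a fatty acid binding protein of heart, muscle and brown fat that kidney also makes, stood in the authors' deposited table at -0.67 ± 0.29 (adjusted p = 0.779). Fabp1 (chromosome 6, 71199827 to 71205023), the liver-type binding protein, stood in the same table at 2.0 ± 1.04 (adjusted p = 1, unadjusted p = 0.0553) with a mean log2 CPM of 1.54. Cd36, a fatty acid translocase also made by endothelium, macrophages and fat, had 0.25 ± 0.49. The SE of Fabp1 was the largest of the 45, whose median SE was 0.25. Beside Fabp1, all 13 liver markers of the list had positive folds with a median of 2.13, 9 with an unadjusted p under 0.05 and 0 past the threshold with adjustment. Among them albumin (Alb) had 6.64 ± 2.05 and Apoa1 5.92 ± 1.63 in the authors' deposited table. Their mean log2 CPM ran from 0.99 to 7.11, an average over both genotypes that gives no level per genotype or animal. The part of these genes in the Fabp1 value was not tested.

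Fabp1 is a textbook target of PPAR-alpha, and its promoter was the only one of those searched for these genes to hold a relaxed receptor element. The element is a direct repeat spaced by 1 base, searched on both strands in the 250 bases before and 50 after each RefSeq start on GRCm38.p6. Promoters matched 40 of the 45 genes. The strict form AGGTCANAGGTCA was in 0 of their 45 promoters and in 0.0396% of 32851 promoters. The form with a free base in each repeat, AGGNCANAGGNCA, was in 1 of the 45 (2.22%) and in 0.381% of all. It is shown in capitals as it reads on the gene's strand, as the reverse complement.
Fabp1: acaatcacTGACCTATGGCCTatatctga
The stretch lies at chr6:71199804-71199832 (plus strand) on GRCm38.p6, with the element 67 to 55 bases before the RefSeq start used for the search. That start lies downstream of the GENCODE gene start given above (71199827), which falls within the stretch. The single repeat AGGTCA, which also lies inside that element, was in 7 of the 45 promoters (15.6%) and in 16.3% of all. These genes were Fabp1, Rxra, Acadm, Cd36, Echs1, Acadvl and Cpt1a. Such a match is not evidence of binding, and a part of PPAR-alpha in the Fabp1 value was not tested.

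Acyl-CoA synthetases activate fatty acids by joining them to coenzyme A. The 4 long-chain synthetases among the 45 were above 0, with a median of 0.36 and 1 gene with an unadjusted p under 0.05. That gene, Acsl4 (chromosome X, 142317993 to 142390535), favours arachidonic acid and stood in the authors' deposited table at 0.52 ± 0.22 (adjusted p = 0.777). Acsl3, a synthetase of the endoplasmic reticulum and lipid droplets, had 0.41 ± 0.22, Acsl1, the abundant synthetase of oxidising tissues, 0.30 ± 0.33, and Acsl5 0.17 ± 0.20, each with an adjusted p of 1 in the authors' deposited table. Among synthetases outside the 45, the authors' deposited table gives -0.20 ± 0.56 for the same-family gene Acsl6, whose mean log2 CPM was -1.43. The medium-chain genes Acsm1, Acsm2, Acsm3 and Acsm5 ran from -1.08 to -0.17, and Acss1, which activates acetate, had 0.09 ± 0.25 in the authors' deposited table. Acsl4 is X-linked, and Xist, the RNA made from the inactive X of female cells, stood in the authors' deposited table at 10.21 ± 2.36. The Y-linked genes Ddx3y, Kdm5d, Uty and Eif2s3y had folds from -0.66 to -0.14, with SEs of 1.40 or more. The sex of the animals is not given in the sources used here, and its part in the Acsl4 value was not tested. Acsl3 overlaps Utp14b on the same strand, and Acsl5 overlaps Zdhhc6 on the opposite strand, so their reads may not be fully separable.

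The carnitine transferases lay below 0 throughout. All 4 folds were negative with a median of -0.30, and 1 gene had an unadjusted p under 0.05. Cpt1b (chromosome 15, 89416405 to 89425863), the muscle and brown fat form of the enzyme that loads acyl groups onto carnitine, stood in the authors' deposited table at -0.87 ± 0.31 (unadjusted p = 0.00561, adjusted p = 0.463). That is 1.82-fold lower. The form that predominates in kidney and liver, Cpt1a, had -0.21 ± 0.26, and its interval ended at -0.71 and 0.29. Cpt2, which hands the acyl group back to coenzyme A inside the mitochondrion, had -0.34 ± 0.22, and Crat, which acts on short chains, -0.27 ± 0.25, each with an adjusted p of 1 in the authors' deposited table. An annotated protein-coding gene, Gm44502, runs over 9459 bases of Cpt1b on the same strand. Gm44502 has no entry under that name among the deposited genes, so whether reads of Cpt1b were shared with it is unknown.

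Adipose markers had negative folds with wide errors beside those of Cpt1b and Fabp3. All 8 were negative, from -1.75 to -0.14, with a median of -0.63 and a median SE of 1.23. Of the 8, 0 had an unadjusted p under 0.05. The authors' deposited table gives -1.75 ± 1.39 for Ucp1, the uncoupling protein of brown fat, with a mean log2 CPM of 5.38, and -1.64 ± 1.47 for Cidea. The mean log2 CPM of the 8 markers, averaged over both genotypes, ran from 1.12 to 8.05. Muscle markers were low, from -3.72 to -0.08 in mean log2 CPM for the 8 of 10 that were in the table, with 4 positive and 4 negative folds. The part of adipose RNA in the values of Cpt1b and Fabp3 was not tested. Without Cpt1b, Fabp3 and Fabp1, the median of the other genes was -0.08 and 2 had an unadjusted p under 0.05.

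Inside the mitochondrion, the chain-shortening enzymes differed little. The 20 genes from carnitine transfer to electron transfer had 18 negative folds and a median of -0.15, with Cpt1b the single gene at an unadjusted p under 0.05. All 6 acyl-CoA dehydrogenases, which carry out the first step, were negative, from -0.26 (Acad10) to -0.03 (Acad11), with a median of -0.16. Acad10 had an SE of 0.25 and Acads, the short-chain enzyme, had -0.22 ± 0.23 in the authors' deposited table. The medium-chain enzyme Acadm had -0.09, the long-chain enzyme Acadl -0.11 and the very-long-chain enzyme Acadvl -0.23. All 6 intervals held 0.

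Downstream steps gave folds of similar size. Of the 5 genes from hydratase to thiolase, 4 were negative, with a median of -0.07. Acaa2, the thiolase of medium chains, had -0.27 ± 0.28, and Hadha, the alpha subunit of the trifunctional protein, -0.19 ± 0.22 in the authors' deposited table. Hadhb, its beta subunit, had -0.06 ± 0.28, so the interval of Hadha lay almost wholly inside that of Hadhb. Hadha and Hadhb are divergent neighbours on chromosome 5, with 85 bases between their annotated starts. Hadh, the short-chain hydroxyacyl-CoA dehydrogenase, had -0.07, and Echs1, the short-chain hydratase, 0.10. For unsaturated chains, Decr1 had -0.11 ± 0.23 and Eci1 0.01 ± 0.28 in the authors' deposited table.

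Electrons from the dehydrogenases pass through the electron transfer flavoprotein to ubiquinone. Its subunit genes had log2 folds of -0.08 ± 0.25 (Etfa) and -0.28 ± 0.26 (Etfb), and the acceptor oxidoreductase gene Etfdh -0.06 ± 0.21, in the authors' deposited table. None of these intervals excluded 0.

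**Figure D2:**
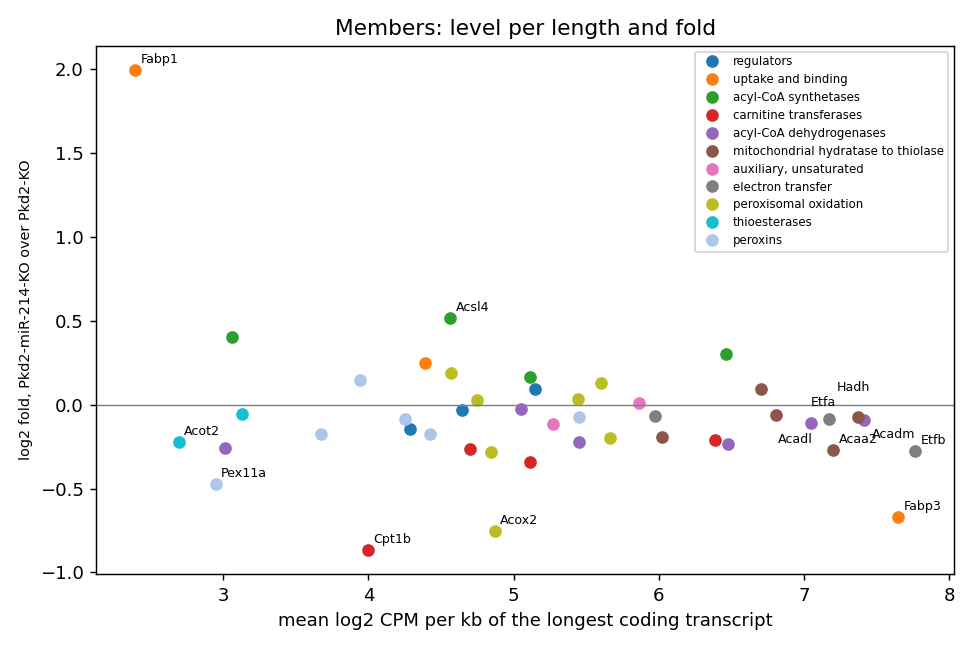
Level of each of the 45 genes, as mean log2 CPM per kilobase of the longest coding transcript (x axis), against its log2 fold (y axis), coloured by role. Etfb (7.77) and Fabp3 (7.65) have the highest levels and Fabp1 (2.39) the lowest.

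Levels were compared per length, as mean log2 CPM per kilobase of the longest annotated coding transcript. On this scale Etfb (7.77), Fabp3 (7.65), Acadm (7.42), Hadh (7.37) and Acaa2 (7.20) were highest. Cpt1a (6.39) stood above Cpt1b (4.0), and Acsl1 (6.46) above Acsl5 (5.11), Acsl4 (4.56) and Acsl3 (3.06). The lowest were Fabp1 (2.39), Acot2 (2.69), Pex11a (2.95) and Acad10 (3.01). Most mitochondrial enzymes thus had high levels, and several peroxins and the thioesterases low ones. These levels average both genotypes and carry no error, and the transcript length used may not be that of the kidney isoform.

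Peroxisomal oxidation genes were divided, with 4 positive and 3 negative folds and a median of 0.03. Acox2 (chromosome 14, 8225511 to 8259353), the oxidase of branched chains and bile acid precursors, stood in the authors' deposited table at -0.75 ± 0.27 (unadjusted p = 0.00583, adjusted p = 0.474). Its interval ran from -1.29 to -0.22, while that of Acox3, a related oxidase, ran from -0.41 to 0.46 around 0.03. The difference between these oxidases was not tested. Ehhadh, the bifunctional enzyme that PPAR-alpha induces, had 0.13, Decr2 0.19 and Eci2 0.03 in the authors' deposited table.

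The thiolases Acaa1a and Acaa1b had log2 folds of -0.28 ± 0.26 and -0.20 ± 0.31, with an adjusted p of 1 for each in the authors' deposited table. Their coding sequences are 96.5% identical over 1272 aligned bases, with a longest identical run of 327 bases. Acot1 and Acot2, thioesterases of the cytosol and the mitochondrion that free fatty acids from coenzyme A, had -0.05 ± 0.30 and -0.22 ± 0.28 in the authors' deposited table. Their coding sequences are 95.6% identical, with a longest identical run of 273 bases. Values of all 4 genes are uncertain, since the counting of shared reads is not given in the sources used here. Acaa1a also overlaps Slc22a14 and Myd88 on the opposite strand. Annotated protein-coding genes overlap Fabp3, Crat, Acadvl, Acad11, Echs1, Hadha, Etfb, Etfdh, Acaa1b and Pex3 as well, and how such reads were assigned is not stated. Garem2 over Hadha, Gm45233 over Etfb, Gm28305 over Acad11 and Gm10570 over Fabp3 have no entry under these names among the deposited genes.

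Peroxins had 5 negative folds of 6 and a median of -0.13, with none at an unadjusted p under 0.05. Pex11a (chromosome 7, 79735957 to 79743131), which promotes peroxisome division and is induced by PPAR-alpha, stood in the authors' deposited table at -0.47 ± 0.25 (unadjusted p = 0.0552, adjusted p = 1). The AAA ATPase gene Pex6, which recycles the import receptor, had -0.18 ± 0.22, and Pex14, which docks that receptor at the membrane, -0.18 ± 0.22 in the authors' deposited table. Pex5, the import receptor itself, had -0.08, Pex19, which chaperones membrane proteins, -0.08, and Pex3, its membrane anchor, 0.15. All 6 intervals held 0 and lay within a 2-fold change.

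**Figure D3:**
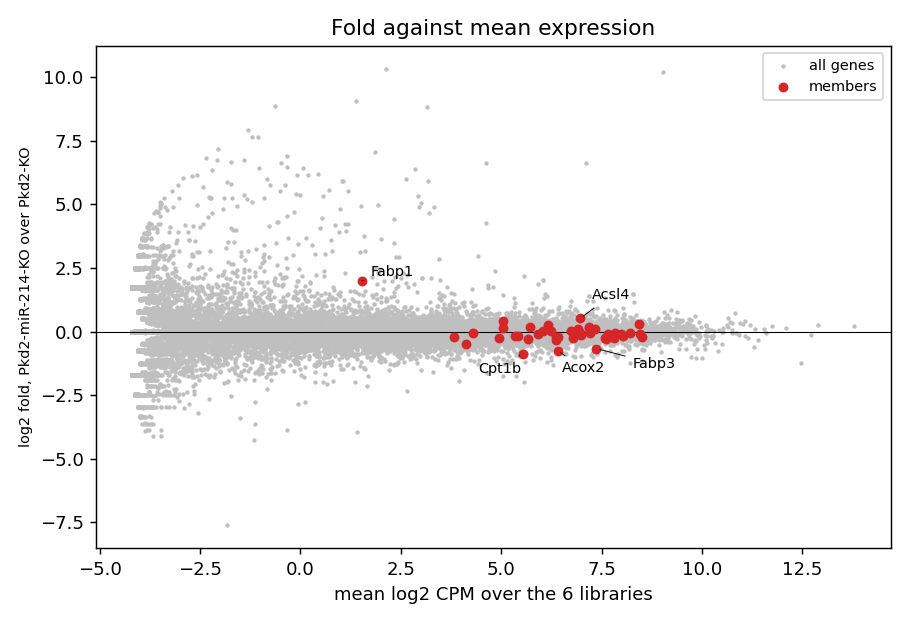
Log2 fold of all 20138 genes (grey) and the 45 pathway genes (red) against mean log2 CPM. Apart from Fabp1 at 1.54, the pathway genes lie at 3.83 or more in mean log2 CPM and within the cloud of other genes.

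Other genes of these pathways were read from lists made by function. Of 24 further oxidation genes, 0 had an unadjusted p under 0.05, 19 were negative and the median was -0.16. The acyl-CoA synthetase Acsm3 had -1.08 ± 0.59 and the reductase Pecr -0.53 ± 0.35 in the authors' deposited table. Of 28 further peroxisome genes, 14 were negative, the median was -0.02, and Hao2, a hydroxyacid oxidase, was the 1 with an unadjusted p under 0.05 (-1.0 ± 0.50, adjusted p = 1 in the authors' deposited table). Of 24 PPAR-responsive genes, 17 were negative, the median was -0.18, and Angptl4, an inhibitor of lipoprotein lipase, had -0.76 ± 0.35 with an unadjusted p of 0.0313 in the authors' deposited table. Acot5 was the other one of that list at an unadjusted p under 0.05, at a mean log2 CPM of -2.68. None of the genes in these 3 lists passed with adjustment.

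Proximal tubule markers, which mark the cells richest in this pathway, had 18 negative folds of 19 and a median of -0.44. In thick ascending limb markers 7 of 7 were negative, with a median of -0.58. In these lists 2 and 3 genes had an unadjusted p under 0.05 and 0 passed with adjustment. The urate transporter gene Slc22a12 had -1.24 ± 0.38 and the transporter gene Slc7a13 -2.00 ± 0.78 in the authors' deposited table. Slc7a13 is also among the male-biased kidney genes described below. The medians of both marker lists lay further below 0 than the -0.15 of the 20 mitochondrial genes. The mean log2 CPM of these markers, averaged over both genotypes, ran from 4.05 to 12.47. Their part in the negative folds of the pathway was not tested. The sex of the animals is not given in the sources used here, and its part in the marker folds was not tested either.

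**Figure D4:**
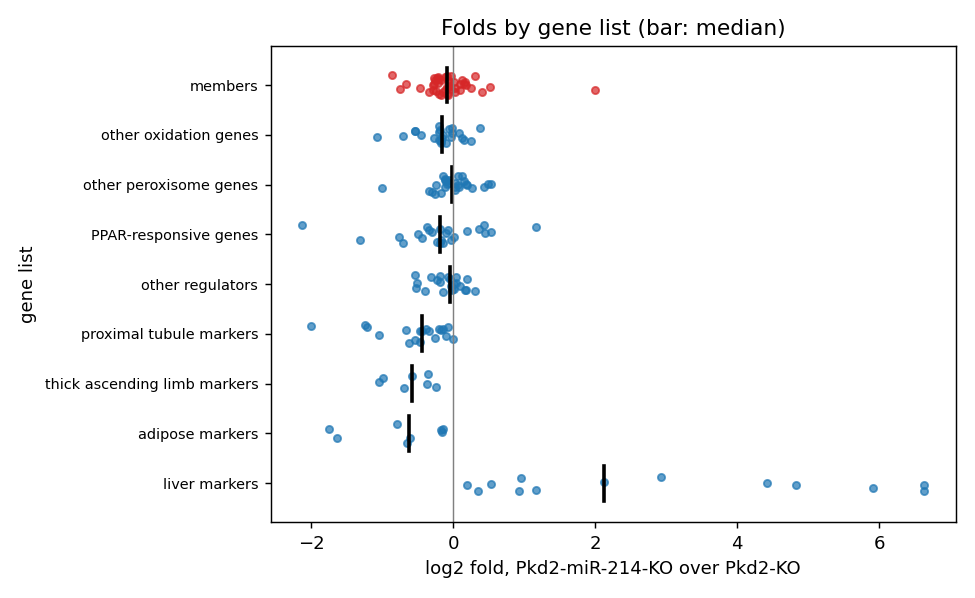
Log2 folds of the genes of each list (points, spread vertically for legibility) with the median as a black bar. The 45 pathway genes centre at -0.08, proximal tubule markers at -0.44, adipose markers at -0.63 and liver markers at 2.13.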

How the data were processed

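Kidney RNA of 3 Pkd2-KO and 3 Pkd2-miR-214-KO mice was sequenced from a stranded total RNA library kit, per the labels' protocols, while the series text speaks of polyA mRNA. TopHat2 2.0.12, edgeR and mm10 are named in the submitters' processing notes. The authors deposited 1 table with a log2 fold, a mean log2 CPM, a likelihood ratio (a score on 1 degree of freedom), a p-value and a Benjamini-Hochberg adjusted p-value per gene, per the file headers. The sources used here give no settings, filters, normalization factors or use of strand, and depth is unknown. The series text calls the 3 samples of a group biological replicates.

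The deposited p-values equalled the chi-square tail of the likelihood ratio (largest difference 6.25e-15). The authors' test was used, with no new test per gene. A test on counts had been planned only in case counts per library were found. Approximate SEs were computed from fold and likelihood ratio, which is poor at low counts. They are undefined for 414 genes at fold 0. The functions were run on simulated folds with a known SE, from which the likelihood ratio was built. That run checks the code and cannot show whether the approximate SE holds for fits to counts. Transcript and gene models were GENCODE M21 (GRCm38, the assembly of mm10). Calculations used Biopython 1.88, scipy 1.17.1, pandas 2.3.3 and numpy 2.4.6 in Python 3.11.15, and figures matplotlib 3.10.9. Full values were given for genes with an unadjusted p under 0.05, the regulators, the 2 smallest p-values per role and the paralog pairs. For the other lists, up to 4 genes with the smallest p could be named. Umod, Eif2s3y, Acsl6, Acss1, Acsm1 and Acsm2 were chosen after their values were seen. The genes and lists were chosen with earlier results of these data known. Alternatives covered the adjustment, thresholds, centring, an expression filter, weighting, the paralogs and the seed length.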

Additional observations from a re-analysis of the deposited data

How the results depend on the processing

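The count of 0 genes past an adjusted p of 0.05 stayed at 0 when p-values were adjusted over genes with a mean log2 CPM of at least 0 or 3, and at a threshold of 0.1. The 4 genes at an unadjusted p under 0.05 became 2 at 0.01 and 7 at 0.1, and stayed 4 with the expression filter. They also stayed 4 with centring on the median of all genes, but that median was 0, so this centring changes nothing. Leaving out Cpt1b, Fabp3 and Fabp1, chosen after seeing the data, left 2. Many of the 60 alternative values of the medians could hardly move. Centring subtracted 0 (all genes) or 0.00148 (genes with a mean log2 CPM of at least 3). Several groups lost no gene to the expression filter or with the paralogs left out. Of the 60 values, 59 lay within the median SE of their group, a count that is therefore no measure of robustness. The exception was uptake and binding, whose weighted mean was -0.30 against a median of 0.25. With the expression filter that median was -0.21, since Fabp1 drops out, and the weighted mean of peroxisomal oxidation was -0.08. The 8 genes with a 7-base -3p site became 14 with the 6-base site (31.1%, against 48.9% of all genes) and 3 with the -5p site, the last added after seeing the data. No paired analysis was possible because the labels number the animals without pairing them and no values per library were used. Leaving out single animals was not run for the same reason. Unknown depth limits the precision, and the SEs of the 45 genes ran from 0.20 to 1.04.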

Other observations

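Kidney genes with a sex bias were described because Xist differed. Of 9 male-biased kidney genes, 7 had negative folds with a median of -0.61, among them the oxidation gene Acsm3 (-1.08 ± 0.59) and the transporter gene Slc7a13 (-2.00 ± 0.78) in the authors' deposited table. Cyp7b1, another of the list, had a positive fold of 0.52 ± 0.24 in the authors' deposited table. Of 6 kidney genes listed as female-biased, 3 had positive and 3 had negative folds, with a median of -0.06. The highest fold was that of Cyp2d9 (1.16 ± 0.64), which may not belong on that list. The sex bias of the listed genes could not be checked in these data. Macrophage markers, whose cells also make Cd36, had 8 positive folds of 12 with a median of 0.13. Of these, 1 passed with adjustment, the scavenger receptor gene Cd163 (1.76 ± 0.35, adjusted p = 0.00126, authors' likelihood ratio test), and Mrc1 had 0.51 ± 0.24 with an unadjusted p of 0.0353 in the authors' deposited table.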
